A study of Mus musculus with 16 samples.

Results

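The 7 genes described here encode proteins that set which fuel a mitochondrion burns and how tightly its respiration is coupled. They were the 4 pyruvate dehydrogenase kinases Pdk1, Pdk2, Pdk3 and Pdk4, the secreted lipase inhibitor Angptl4, and the uncoupling proteins Ucp2 and Ucp3. They were taken by gene symbol from the 22372 genes of the count table, and each matched 1 Ensembl identifier. They are kinases of the dehydrogenase and not the glycolytic pyruvate kinases Pkm and Pklr, which were not among them. All 7 were expressed high enough to be tested.

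RNA came from pieces of heart ventricle of C57BL/6J mice, 10 to 12 weeks old when the experiment began, with 4 mice in each of 4 groups. The TAC groups had transverse aortic constriction, in which a suture around the aorta makes the heart pump against a raised pressure, and the sham groups were operated on without it. THZ1, a covalent inhibitor of the transcriptional kinases CDK7, CDK12 and CDK13, was injected into the peritoneum at 10 mg/kg, 2 times daily, beginning on day 1 and ending on day 60, and the other mice received vehicle. The sham groups are called Sham-Veh and Sham-THZ1 and the constricted groups TAC-Veh and TAC-THZ1, and in all of them treatment was given to the whole animal and the RNA was that of all cells of the ventricle piece.

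As background, the pyruvate dehydrogenase complex turns pyruvate from glucose and lactate into acetyl-CoA. The 4 kinases phosphorylate its E1 subunit and switch it off, phosphatases reverse this, and a high kinase level therefore spares carbohydrate while fatty acids are burned. Pdk4 and Angptl4 are classical targets of the fatty acid-sensing PPAR receptors and rise in fasting, and Angptl4 blocks lipoprotein lipase, which frees fatty acids from circulating triglyceride. Ucp3 is an inner-membrane carrier of muscle and heart that is also induced by PPAR receptors, and Ucp2 is its relative with a broad tissue distribution. The adult heart draws most of its energy from fatty acids and shifts away from them under pressure overload.

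Read totals in genes were 21431703 to 35812869 per library, and mitochondrial genes took 33.2% to 44.7% of them. Over all libraries the fewest reads behind a value were 29 for Pdk3, 37 for Angptl4 and 265 for Ucp3, so counting error mattered mainly for the first and second of these. Cardiomyocyte markers such as Myh6 were high in every library. Library TAC-Veh replicate 1 stood apart from the other TAC-Veh libraries for several of the genes, and values without it are given beside the results it moved most.

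The genes lay apart in the genome except for the uncoupling pair. On mm9, Pdk1 was at chr2:71711281-71741915, Pdk2 at chr11:94887572-94902668, Pdk3 at chrX:91009946-91077540, Pdk4 at chr6:5433351-5446309 and Angptl4 at chr17:33910695-33918520. Ucp3 at chr7:107621499-107634941 and Ucp2 at chr7:107641846-107650529 were neighbours on the same strand, with 6904 bases between them. A noncoding transcript, Gm11513, lay over 5525 bases of Pdk2 on the opposite strand, and the reads had been counted by strand. Promoter sequences from RefSeq (GRCm38.p6, a later build than mm9) were matched for 6 of the 7 genes, and Angptl4 had no entry. The 250 bases before the start are shown, 5′ to 3′ along the gene, for the kinases Pdk4 and Pdk2, whose levels moved apart below, and for the neighbours Ucp3 and Ucp2. Capitals mark the letters searched for on either strand, which were AGGTCA (the core of a nuclear receptor element), ACGTG (the hypoxia core), GCGTG (the dioxin response core), GTAAACA (the FOXO element), CCAAT (the CCAAT box), TATAAA (the TATA box), GGGCGG (the GC box) and TGACGTCA (the CRE).
Pdk4 (chr6:5496279-5496528, reverse strand): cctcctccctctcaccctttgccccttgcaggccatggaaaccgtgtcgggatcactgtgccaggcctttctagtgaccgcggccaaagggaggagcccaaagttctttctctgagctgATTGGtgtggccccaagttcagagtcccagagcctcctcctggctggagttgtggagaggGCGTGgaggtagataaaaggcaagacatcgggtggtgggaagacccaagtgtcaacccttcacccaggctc
Pdk2 (chr11:95041372-95041621, reverse strand): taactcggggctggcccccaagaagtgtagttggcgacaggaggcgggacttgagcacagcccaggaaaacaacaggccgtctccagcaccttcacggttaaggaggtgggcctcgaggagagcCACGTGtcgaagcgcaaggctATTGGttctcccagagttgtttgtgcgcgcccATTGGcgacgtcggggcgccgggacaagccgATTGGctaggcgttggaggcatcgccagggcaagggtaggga
Ucp3 (chr7:100472741-100472990, forward strand): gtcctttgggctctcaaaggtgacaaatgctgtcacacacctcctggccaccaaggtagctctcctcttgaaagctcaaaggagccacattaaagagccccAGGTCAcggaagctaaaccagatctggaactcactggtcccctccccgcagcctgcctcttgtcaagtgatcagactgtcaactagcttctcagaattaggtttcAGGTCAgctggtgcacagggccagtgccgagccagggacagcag
Ucp2 (chr7:100493108-100493357, forward strand): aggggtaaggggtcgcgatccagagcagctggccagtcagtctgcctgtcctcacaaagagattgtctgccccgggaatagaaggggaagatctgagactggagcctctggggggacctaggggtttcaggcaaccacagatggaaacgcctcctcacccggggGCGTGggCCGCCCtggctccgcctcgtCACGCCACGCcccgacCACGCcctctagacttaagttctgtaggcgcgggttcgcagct

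Ucp3 held 2 copies of AGGTCA, the motif of nuclear receptors, at 149 and 44 bases before its start, and 14% of the 32851 promoters searched held at least 1. No AGGTCA stood in the windows of Pdk4, Pdk2 or Ucp2. Pdk2 held 3 copies of CCAAT, all on the reverse strand, where Pdk4 held 1, and 33.8% of promoters held it. Pdk2 also had ACGTG overlapping itself on the 2 strands as CACGTG, and 16.6% of promoters held ACGTG. The window of another listed Pdk2 start (chr11:95040876-95041125) is not shown and held none of the motifs searched for. Ucp2 held 4 copies of GCGTG and 1 of GGGCGG, found in 28.2% and 32.7% of promoters, while Ucp3 had neither. The FOXO, TATA and CRE motifs were in none of these 4 windows and in 3.17%, 12.4% and 1.55% of all promoters. These matches are a description of the letters and not of binding.

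Levels differed widely between the genes when scaled by exon length. In Sham-Veh, Pdk2 stood at 2927 ± 158 (SD, n = 4) normalized counts per kb of exon and Pdk4 at 2523 ± 1100, ahead of Pdk1 at 644 ± 29.4 and Ucp3 at 449 ± 112. Ucp2 reached 147 ± 18.0, and Angptl4 and Pdk3 were the least abundant at 31.2 ± 11.6 and 16.5 ± 4.12. The spread within a group separated the genes as well. Pdk1 and Pdk2 varied by 4.56% and 5.41% (coefficient of variation) among the Sham-Veh mice, against 43.6% for Pdk4 and 37.1% for Angptl4. Across all 16 libraries the highest value exceeded the lowest 1.23-fold for Pdk1, 2.42-fold for Pdk2, 10.7-fold for Ucp3 and 13.9-fold for Pdk4, and Angptl4 ran from 30.1 to 481 normalized counts.

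**Figure D1:**
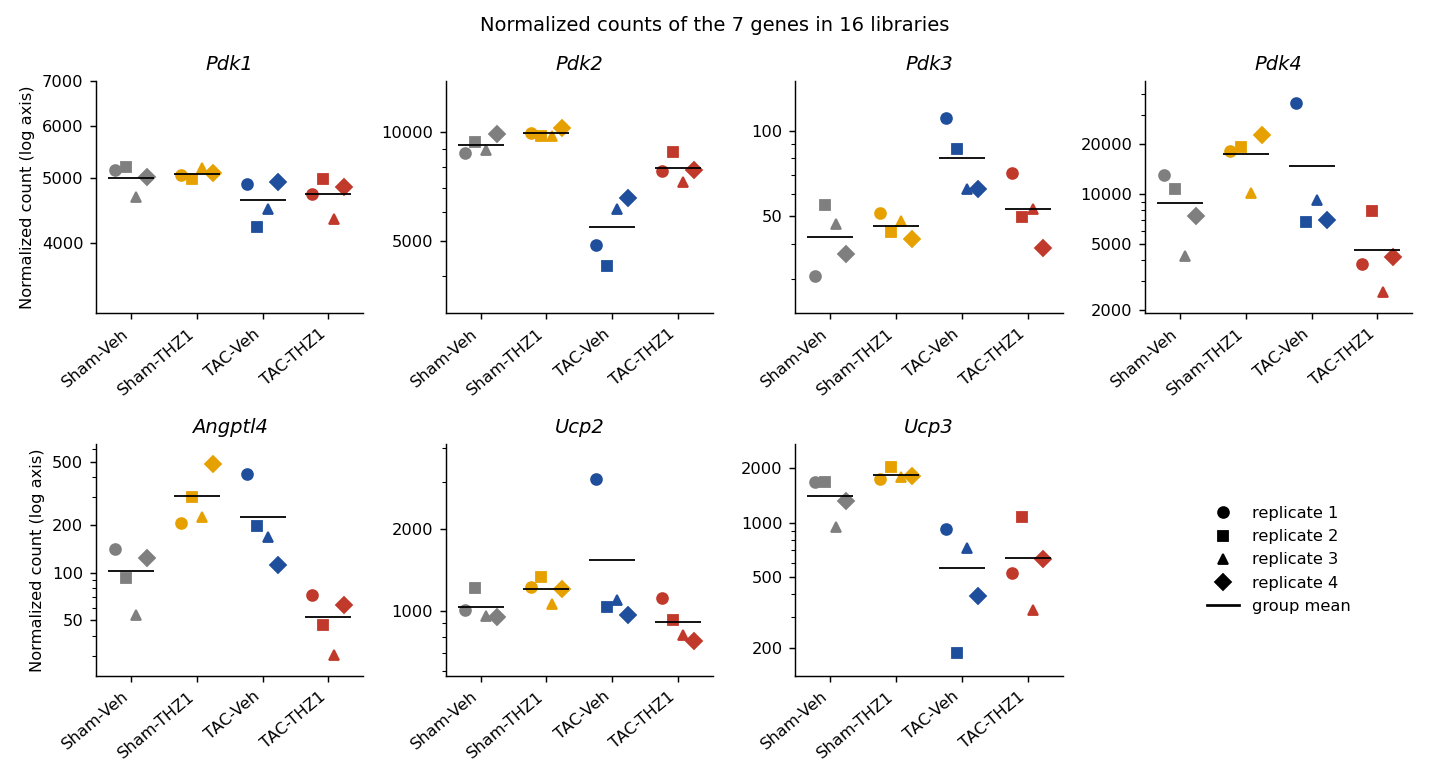
Normalized count (log axis, its own range in each panel) of each gene in every library, by group, with the marker shape giving the replicate number and the line the group mean. Pdk1 stays between 4223 and 5191 in all 16 libraries, and TAC-Veh replicate 1 is at 35683 for Pdk4 and 3071 for Ucp2, far above the other TAC-Veh libraries.

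The first comparison asked how pressure overload changed these genes in mice given vehicle. With TAC, Pdk2 and Ucp3 fell, and Pdk3 and Angptl4 rose. Pdk1, Pdk4 and Ucp2 did not pass the test. A gene was called at an adjusted p under 0.05 over the 13331 genes tested, and 2 of the 7 genes were called higher and 2 lower, where 21.4% of all genes were called higher and 23.6% lower. The shares were near those of all genes, so the counts say nothing particular to these 7. In bulk tissue, fewer cells of a type and less RNA per cell cannot be told apart.

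Pdk2, the kinase isoform with broad constitutive expression, was at 8780, 9431, 8941 and 9885 normalized counts in Sham-Veh and at 4862, 4249, 6133 and 6590 in TAC-Veh. Every TAC-Veh value was below every Sham-Veh value. The fold change was 0.581 (log2 -0.78 ± 0.11 SE, adjusted p = 2.88e-05). Ucp3 was at 1675, 1689, 949 and 1319 in Sham-Veh and at 922, 189, 727 and 394 in TAC-Veh, again without overlap, although the highest TAC-Veh value came close to the lowest Sham-Veh value. Its fold change was 0.345 (log2 -1.53 ± 0.39 SE, adjusted p = 0.00476). Both calls held at an adjusted p under 0.05 in all 21 refits, which changed the values, the model or the libraries. The study added a threshold of a log2 change of at least 1, for genes that rose with TAC and on DESeq2 changes. Applied here to limma changes in either direction, this threshold kept the call of Ucp3 and lost that of Pdk2.

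Pdk3, a minor isoform in heart, was at 30.8 to 54.5 in Sham-Veh and at 62.2 to 111 in TAC-Veh, a fold change of 1.87 (log2 0.90 ± 0.22 SE, adjusted p = 0.00333). These ranges did not overlap, and the call held in all 21 refits but not with the added fold threshold. Angptl4 was at 140, 92.2, 53.9 and 124 in Sham-Veh and at 421, 197, 168 and 112 in TAC-Veh. The lowest TAC-Veh mouse lay within the Sham-Veh range. The fold change was 2.05 (log2 1.03 ± 0.39 SE, adjusted p = 0.0382). This call was lost without TAC-Veh replicate 1 (log2 0.67, adjusted p = 0.133), Sham-Veh replicate 3 (log2 0.76, adjusted p = 0.135), Sham-Veh replicate 2 (adjusted p = 0.0754) or TAC-Veh replicate 2 (adjusted p = 0.0668), and with 4 other settings.

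Pdk4, the kinase that fasting and PPAR receptors induce, was at 13010, 10801, 4207 and 7409 in Sham-Veh and at 35683, 6821, 9245 and 7021 in TAC-Veh. TAC-Veh replicate 1 was the only TAC-Veh library above the Sham-Veh range, and the other TAC-Veh values lay inside it. The log2 difference came to 0.46 ± 0.48 SE (adjusted p = 0.453) with that library and -0.09 (adjusted p = 0.863) without it. Ucp2 showed the same library at 3071 against 963 to 1098 in the other TAC-Veh mice and 947 to 1215 in Sham-Veh. On the log2 scale it differed by 0.40 ± 0.26 SE (adjusted p = 0.227), and by 0.00434 once that library was left out. Pdk1 was at 4684 to 5191 in Sham-Veh and 4223 to 4932 in TAC-Veh (log2 -0.11 ± 0.06 SE, adjusted p = 0.150), an interval from -0.24 to 0.02.

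The library TAC-Veh replicate 1 was the highest of its group for 5 of the 7 genes and for 10 of the 11 genes of a list of fasting and glucocorticoid genes. How often it was the highest over all genes was not counted, so the 10 of 11 cannot be called particular to this list. Fkbp5, a glucocorticoid-induced chaperone, was at 3445 there against 461 to 547 in the other TAC-Veh mice, and Ddit4, a stress-induced brake on mTOR, at 3594 against 486 to 606. Cdkn1a, the p21 cell cycle inhibitor, was at 3080 against 485 to 762. These 3 genes were chosen after their values were seen. The summed level of the list was 52833 in this library and 19239 to 28306 in the others of the group. Its cardiomyocyte marker sum of 999330 lay within the range of the other TAC-Veh libraries, 707280 to 1037400. The part of this in the values of Pdk4, Angptl4 and Ucp2 was not tested beyond leaving the library out.

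The enzymes that act on the same complex moved with TAC as well. All 3 genes of the phosphatase side fell, with Pdp2, a catalytic phosphatase of the complex, down by log2 -1.57 (adjusted p = 9.00e-07), Pdp1, the other catalytic subunit, by -0.56 (adjusted p = 6.42e-04) and the regulatory subunit Pdpr by -0.57 (adjusted p = 0.00204). Of the 5 genes of the complex itself 3 fell, namely Pdha1 (log2 -0.47), Dlat (-0.44) and Dld (-0.49), and Pdhb and Pdhx did not pass the test. Of 10 tested genes of pyruvate supply and disposal 6 fell and 1 rose. The 1 that rose, named after its value was seen, was the monocarboxylate exporter Slc16a3 (log2 2.14, adjusted p = 1.81e-04). The alanine transaminases Gpt (-1.42) and Gpt2 (-1.32), the lactate dehydrogenase Ldhb (-0.65) and the pyruvate carboxylase Pcx (-0.54) fell. The mitochondrial pyruvate carrier subunit Mpc2 fell (-0.35) and its partner Mpc1 had a log2 change of 0.11 (adjusted p = 0.475). Pkm, the pyruvate kinase of heart, had a log2 change of -0.14 (adjusted p = 0.103). Both genes of the analogous branched-chain system fell, the phosphatase Ppm1k by log2 -1.65 and the kinase Bckdk by -0.20.

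Known PPAR target genes of fatty acid oxidation fell in TAC, 16 of the 19 tested, with a list median of log2 -0.69 beside -0.00302 over all genes. The 7 cardiomyocyte markers had a similar median, log2 -0.71, so a fall of this size was not particular to PPAR targets. Acot1, a cytosolic acyl-CoA thioesterase, fell by 2.58 on the log2 scale (adjusted p = 3.13e-06), and Ech1, which helps to oxidize unsaturated fatty acids, by 1.20. Hadha, of the trifunctional protein, fell by 0.85 and Decr1, a dienoyl-CoA reductase, by 0.86. Ucp3 fell with this list, while Pdk4 did not pass the test and Angptl4 was called higher. Of the 13 regulators listed 8 fell, among them Rxra (log2 -0.67), the partner receptor of the PPARs, Foxo3 (-0.81), Ppargc1b (-1.30) and Esrra (-0.43). Ppara, named after its value was seen, fell as well (-0.67, adjusted p = 0.00244). The median of the regulators was -0.57. In the lipoprotein lipase system 6 of 8 tested genes fell, including Lpl itself (log2 -0.74, adjusted p = 5.29e-04), which Angptl4 inhibits. The endothelial anchor of the lipase, Gpihbp1, had a log2 change of 0.35 (adjusted p = 0.308).

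The second comparison asked what THZ1 did in hearts under pressure overload, TAC-THZ1 against TAC-Veh. Pdk4 and Angptl4 were lower with THZ1 and Pdk2 was higher. Of the 7 genes 1 was called higher and 2 lower, where 15.1% and 14.2% of all genes were. This comparison and the first share the TAC-Veh libraries, so a high or low TAC-Veh value moves a gene in opposite directions in the 2 comparisons.

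Angptl4 was at 72.1, 47.1, 30.1 and 62.3 in TAC-THZ1, below every TAC-Veh value. The fold change was 0.257 (log2 -1.96 ± 0.39 SE, adjusted p = 0.00169), and was still log2 -1.60 (adjusted p = 0.00350) without TAC-Veh replicate 1. The call held in all 21 refits and with the study's threshold here, a log2 fall of at least 0.89. This threshold, too, was applied to limma changes in either direction. Pdk4 was at 3815, 7900, 2576 and 4188 in TAC-THZ1. TAC-THZ1 replicate 2 lay inside the TAC-Veh range, and the other TAC-THZ1 mice were below it. The fold change was 0.379 (log2 -1.40 ± 0.48 SE, adjusted p = 0.0362). It lost the call without TAC-Veh replicate 1 (log2 -0.84, adjusted p = 0.0984), TAC-THZ1 replicate 1 (adjusted p = 0.0737), TAC-THZ1 replicate 3 (log2 -1.16, adjusted p = 0.101) or TAC-THZ1 replicate 4 (adjusted p = 0.0655). It was also lost with a fit of these groups alone (adjusted p = 0.103), with array weights (log2 -1.06, adjusted p = 0.193) and with robust empirical Bayes (adjusted p = 0.0589).

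Pdk2 was at 7838, 8827, 7266 and 7887 in TAC-THZ1, above every TAC-Veh value and, for 1 mouse, within the Sham-Veh range. The fold change was 1.48 (log2 0.56 ± 0.11 SE, adjusted p = 0.00137), and the call held in all 21 refits but not with the added fold threshold. Ucp3, which had fallen with TAC, was at 523, 1072, 328 and 624 in TAC-THZ1, of which replicate 2 lay above the TAC-Veh range and the others inside it. The difference was log2 0.30 ± 0.39 SE (adjusted p = 0.605), whose interval ran from -0.53 to 1.13 and so includes a 2-fold rise. Pdk3 at 38.6 to 71.0 (log2 -0.58 ± 0.22 SE, adjusted p = 0.0567) and Ucp2 at 775 to 1114 (log2 -0.59 ± 0.26 SE, adjusted p = 0.0978) missed the threshold. The change of Ucp2 shrank to log2 -0.20 without TAC-Veh replicate 1, and Pdk3 was called without TAC-Veh replicate 3 (adjusted p = 0.0333), TAC-Veh replicate 4 (adjusted p = 0.0358) or TAC-THZ1 replicate 1 (adjusted p = 0.0263), by DESeq2 (adjusted p = 0.0422) and with totals without mitochondrial genes (adjusted p = 0.0374). Ucp2 was called without TAC-Veh replicate 4 (log2 -0.75, adjusted p = 0.0428) and by edgeR (log2 -0.76, adjusted p = 0.0497). Pdk1 had a log2 change of 0.03 ± 0.06 SE (adjusted p = 0.756).

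**Figure D2:**
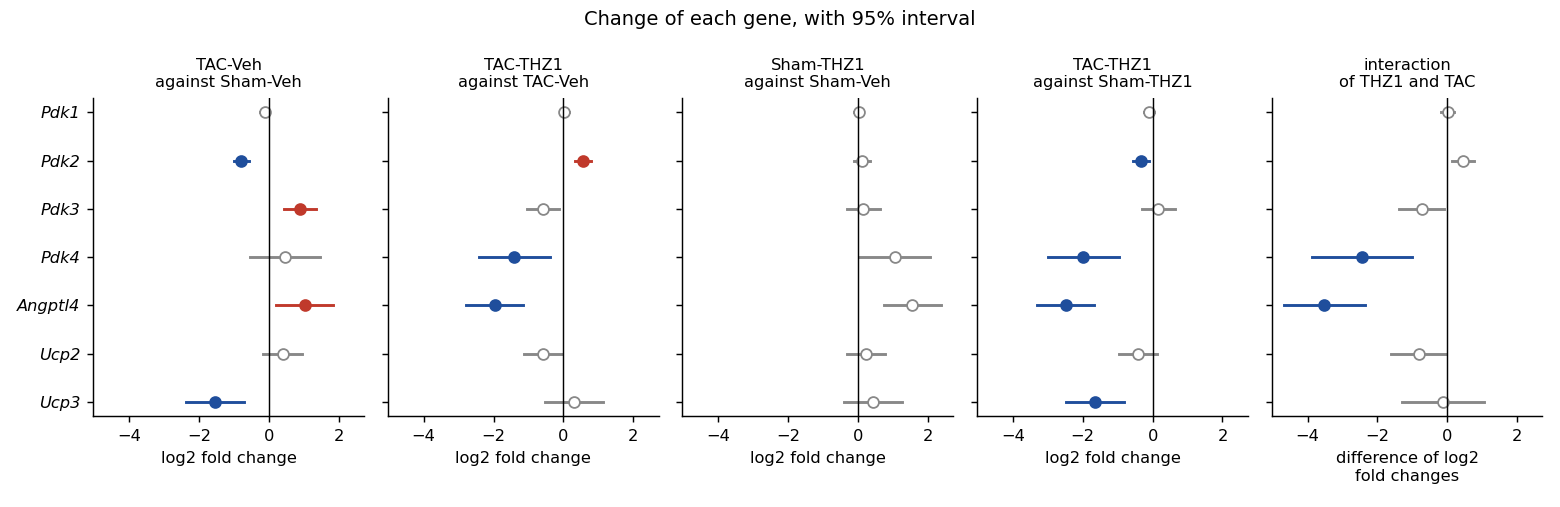
Log2 fold change of each gene (point) with its 95% interval (line) in the 5 comparisons, and for the interaction the difference of the changes with THZ1 in TAC and in sham. Filled red points were called higher and filled blue points lower at an adjusted p under 0.05, open grey points were not called. Pdk4 and Angptl4 lie left of 0 for THZ1 in TAC (log2 -1.40 and -1.96) and right of it, uncalled, in sham (1.05 and 1.56).

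PPAR target genes rose where Pdk4 and Angptl4 fell. Of the 19 tested targets 14 were higher in TAC-THZ1 than in TAC-Veh, with a list median of log2 0.46 beside 0.0145 over all genes. The cardiomyocyte markers had a median of log2 0.47 in the same comparison, so this rise was not particular to PPAR targets either. Acot1 rose by log2 1.65 (adjusted p = 5.69e-04), Ech1 by 0.87, Decr1 by 0.60 and the carnitine palmitoyltransferase Cpt1b by 0.46. The pyruvate dehydrogenase complex moved the same way, with 4 of 5 genes higher, namely Pdha1 (log2 0.30), Pdhb (0.30), Dlat (0.39) and Dld (0.44). Of its phosphatases Pdp2 (0.57) and Pdp1 (0.34) rose, and Pdpr had a log2 change of -0.03 (adjusted p = 0.900). Of the genes of pyruvate supply and disposal 6 of 10 rose, among them Gpt (1.36), Ldhb (0.55) and Mpc2 (0.53), and Slc16a3 fell (-1.09, adjusted p = 0.0322). Lpl was not called (0.32, adjusted p = 0.0946). Among the regulators, Esrra (0.55, adjusted p = 2.50e-04) and Foxo3 (0.49, adjusted p = 0.0129) were higher, Hif1a was lower (-0.53, adjusted p = 0.00269) and Ppara was not called (0.38, adjusted p = 0.0801).

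**Figure D3:**
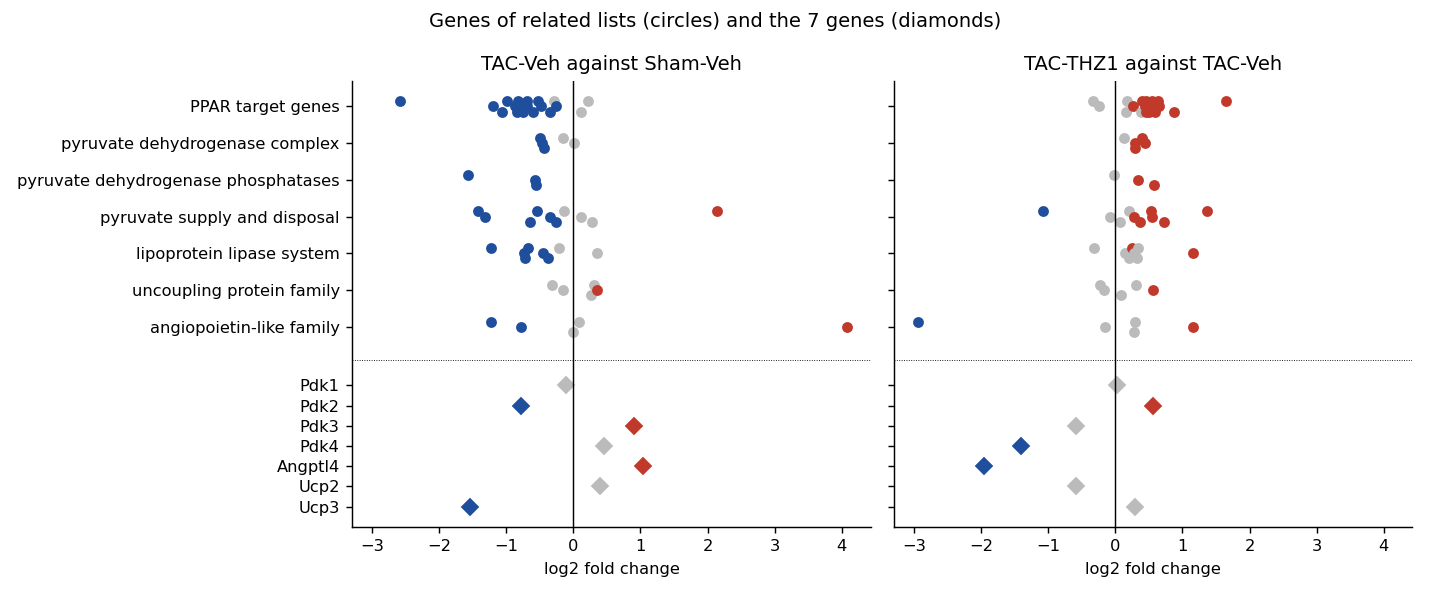
Log2 fold change with TAC (left) and with THZ1 in TAC (right) of the tested genes of 7 related lists (circles, 1 gene each, spread vertically for legibility) and of the 7 genes (diamonds), with red for called higher, blue for called lower and grey for not called. The PPAR targets lie mostly left of 0 with TAC (median -0.69) and right of 0 with THZ1 in TAC (median 0.46), where Pdk4 and Angptl4 are at -1.40 and -1.96. Both comparisons use the TAC-Veh libraries, and 1 gene appears in 2 lists.

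The third comparison asked what THZ1 did without pressure overload, Sham-THZ1 against Sham-Veh. Pdk4 and Angptl4 were at higher levels with the drug, but no member was called by limma, edgeR or DESeq2 after adjustment over all genes, where 0.0225% of genes were called higher and 0.045% lower. At an unadjusted p under 0.05 there were 2 of the 7, the same pair. Over all genes, 917 of the 13331 tested passed this unadjusted cut. Angptl4 was at 205, 300, 226 and 481 in Sham-THZ1, above every Sham-Veh value, for a fold change of 2.94 (log2 1.56 ± 0.39 SE, adjusted p = 0.346). A fit of the sham libraries alone (adjusted p = 0.0112) and one with array weights (adjusted p = 0.00471) called it, and the adjusted p over the other alternatives reached 0.999. Pdk4 was at 18222, 19136, 10109 and 22735, of which all but replicate 3 were above the Sham-Veh range (log2 1.05 ± 0.48 SE, adjusted p = 0.714).

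The other genes changed less in sham. Ucp3 was at 1739 to 2033 with THZ1, above every Sham-Veh value but by a small step (log2 0.42 ± 0.39 SE, adjusted p = 0.923). Pdk2 was at 9776 to 10291 (log2 0.11 ± 0.11 SE), Ucp2 at 1058 to 1329 (0.23 ± 0.26 SE), Pdk3 at 41.5 to 51.3 (0.16 ± 0.22 SE) and Pdk1 at 4981 to 5178 (0.02 ± 0.06 SE), with adjusted p-values of 0.936, 0.950, 0.960 and 0.988. The PPAR targets had a list median of log2 0.12 and the regulators of 0.13, beside 0.00264 over all genes. The phosphatases of the complex had a median of -0.31.

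Whether THZ1 acted differently in TAC and in sham was tested by the interaction, the change with THZ1 in TAC minus that in sham. It was called lower for Pdk4 and Angptl4, 2 of the 7 genes, where 5.62% of all genes were called lower and 4.4% higher. For Angptl4 the difference was log2 -3.52 ± 0.55 SE (adjusted p = 0.00225), made up of a change of 1.56 in sham and -1.96 in TAC. It was called in all 28 refits, and leaving out any 1 library kept it between -3.79 and -3.16. For Pdk4 the difference was log2 -2.45 ± 0.68 SE (adjusted p = 0.0325), from 1.05 in sham and -1.40 in TAC. Without TAC-Veh replicate 1 it was -1.89 and still called (adjusted p = 0.0266).

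The Pdk4 interaction was close to the threshold. Its adjusted p rose to 0.0703 without Sham-Veh replicate 3, 0.0590 without Sham-Veh replicate 4, 0.0613 without Sham-THZ1 replicate 1, 0.0622 without Sham-THZ1 replicate 2 and 0.0677 without Sham-THZ1 replicate 4. It was 0.0510 without TAC-THZ1 replicate 1, 0.0535 without TAC-THZ1 replicate 3 and 0.0504 without TAC-THZ1 replicate 4, and it was 0.0515 with robust empirical Bayes. Pdk2 differed in the other direction (log2 0.46 ± 0.15 SE, adjusted p = 0.0646) and was called without TAC-Veh replicate 3 (adjusted p = 0.0258) or TAC-Veh replicate 4 (adjusted p = 0.0159), by DESeq2 (adjusted p = 0.0430) and with array weights (adjusted p = 0.0275). The values for Pdk3 (-0.74, adjusted p = 0.138), Ucp2 (-0.82, adjusted p = 0.162), Ucp3 (-0.12, adjusted p = 0.914) and Pdk1 (0.01, adjusted p = 0.963) did not pass. Of the PPAR targets 1 was called higher in the interaction, and the list median was log2 0.36.

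Among THZ1-treated mice, TAC-THZ1 was compared with Sham-THZ1. Angptl4, Pdk4, Ucp3 and Pdk2 were all lower under pressure overload, 4 of the 7 genes, where 12.8% of all genes were called lower and 11.4% higher. Angptl4 differed by log2 -2.48 ± 0.39 SE (adjusted p = 8.76e-04) and Pdk4 by -1.99 ± 0.48 SE (adjusted p = 0.00834), and for both genes every TAC-THZ1 mouse was below every Sham-THZ1 mouse. Ucp3 differed by log2 -1.66 ± 0.39 SE (adjusted p = 0.00783), close to its log2 change of -1.53 in vehicle-treated mice. These 3 calls held in all 21 refits. For Pdk2 the difference of log2 -0.33 ± 0.11 SE (adjusted p = 0.0361) was lost without any 1 of Sham-THZ1 replicates 1, 2, 3 and 4 or of TAC-THZ1 replicates 1, 3 and 4, with adjusted p-values up to 0.0954, and with upper quartile scaling (adjusted p = 0.0535). Pdk3 (log2 0.17), Ucp2 (-0.42) and Pdk1 (-0.10) were not called, although Ucp2 was called lower by a fit of these groups alone (adjusted p = 0.0133) and with array weights (adjusted p = 0.0161).

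The order of the groups therefore differed between genes. For Pdk4 and Angptl4 the means ran from Sham-THZ1 (17550 ± 5330 and 303 ± 126, SD, n = 4) over TAC-Veh (14692 ± 14037 and 224 ± 136) and Sham-Veh (8857 ± 3862 and 103 ± 38.0) to TAC-THZ1 (4620 ± 2293 and 52.9 ± 18.3). The ranges of neighbours in this order overlapped for both genes. Without TAC-Veh replicate 1 the TAC-Veh mean of Pdk4 was 7695 ± 1346 (SD, n = 3), below that of Sham-Veh, so its place in the order rests on that library, while that of Angptl4 was 159 ± 43.3 and kept its place. For Pdk2 the order was Sham-THZ1 (9956 ± 240), Sham-Veh (9259 ± 501), TAC-THZ1 (7955 ± 647) and TAC-Veh (5458 ± 1089), with overlap of the sham groups and, by 1 mouse, of Sham-Veh with TAC-THZ1. For Ucp3 both sham groups (1843 ± 130 and 1408 ± 351) had higher means than TAC-THZ1 (637 ± 315) and TAC-Veh (558 ± 329), and the TAC groups overlapped.

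The make-up of the kinase transcripts was read within each library, per length of exon, which removes any error of scaling between libraries. Pdk4 and Pdk2 together made up most of the kinase transcripts everywhere, with Pdk1 at 7.62% to 13.9% and Pdk3 at 0.212% to 0.550% in the group means. Pdk4 was 51.8%, 45.6%, 25.8% and 35.8% of the kinase transcripts in Sham-Veh and 82.1%, 50.3%, 50.9% and 42.2% in TAC-Veh. The Sham-THZ1 mice had 57.6%, 59.3%, 43.2% and 62.3%, and the TAC-THZ1 mice 25.9%, 39.5%, 20.3% and 27.6%. The TAC-THZ1 shares were below every TAC-Veh and every Sham-THZ1 share.

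The mean share of Pdk4 in TAC-THZ1 differed by -28.1 percentage points from TAC-Veh and by -27.3 from Sham-THZ1, each with p = 0.0286 in an exact two-sided permutation test, the smallest p that 4 against 4 mice allow. Adjusted over the 8 share comparisons made, both came to p = 0.0571 (exact permutation) and missed the threshold. Both were already at the smallest possible p, so no larger difference in either comparison could have passed. The share of Pdk4 was 16.6 points higher in TAC-Veh than in Sham-Veh (exact permutation p = 0.200, adjusted 0.229) and 15.8 points higher in Sham-THZ1 than in Sham-Veh (exact permutation p = 0.0857, adjusted 0.137). Without TAC-Veh replicate 1 the first of these was 8.04 points, and the difference of TAC-THZ1 from TAC-Veh was -19.5 points. Pdk2 took the larger share in Sham-Veh and TAC-THZ1 (group means 49.2% and 57.3%) and the smaller in Sham-THZ1 and TAC-Veh (36.6% and 32.2%).

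**Figure D4:**
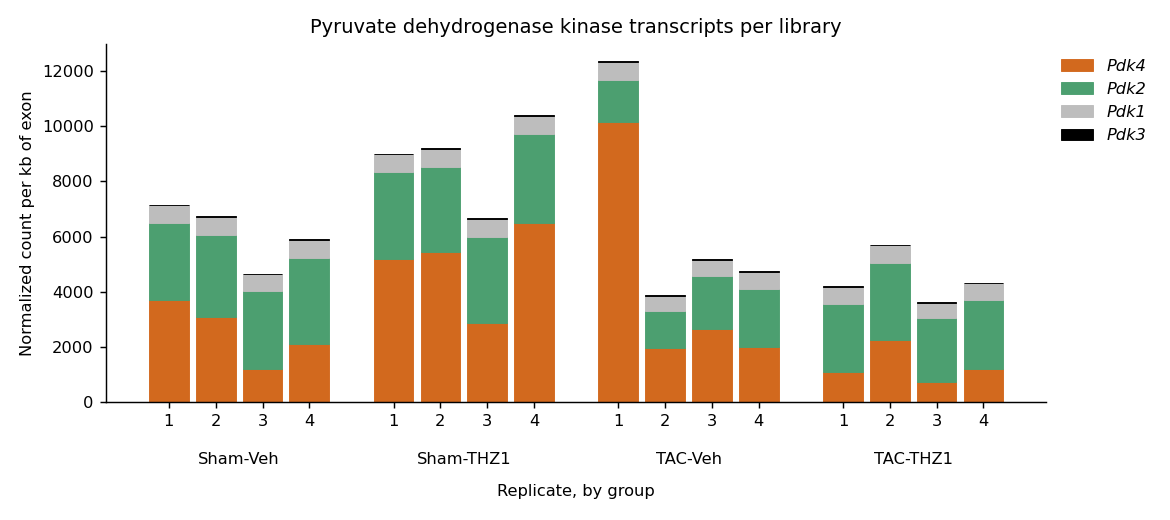
Normalized counts per kb of exon of the 4 pyruvate dehydrogenase kinases, stacked for each of the 16 libraries (replicate numbers below the bars, by group). Pdk4 (orange) ranges from 20.3% to 82.1% of the stack, Pdk1 (light grey) is nearly constant and Pdk3 (black, on top) is barely visible.

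The summed kinase level was 6110 ± 1109 normalized counts per kb for Sham-Veh and 8817 ± 1565 for Sham-THZ1, and 6538 ± 3929 for TAC-Veh and 4460 ± 885 for TAC-THZ1. The high sum in TAC-Veh came from replicate 1 at 12374, which lay above all Sham-THZ1 libraries. Without it the TAC-Veh mean was 4593 ± 669 (n = 3), below that of Sham-Veh.

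For the uncoupling pair, Ucp3 was 68.9% to 78.8% of the summed Ucp2 and Ucp3 transcripts in Sham-Veh and 76.0% to 79.0% in Sham-THZ1. In TAC-Veh it was 40.1%, 29.1%, 59.6% and 47.7%, and in TAC-THZ1 51.2%, 72.1%, 47.4% and 64.2%. The shares of the TAC groups lay below those of the sham group with the same treatment, without overlap, with differences of -30.6 points with vehicle and -18.6 points with THZ1 (each p = 0.0286, exact permutation test, adjusted 0.0571). Here too the unadjusted p was the smallest possible, so a larger difference could not have passed either. TAC-THZ1 was 14.6 points above TAC-Veh with overlapping shares (exact permutation p = 0.171, adjusted 0.229), and Sham-THZ1 2.60 points above Sham-Veh (exact permutation p = 0.286, adjusted 0.286). In TAC-Veh replicate 1 the low share went with a Ucp2 count of 3071 beside a Ucp3 count of 922, whereas in TAC-Veh replicate 2 the counts were 1029 and 189.

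Of 5 tested relatives of the uncoupling proteins none was called lower with TAC and 1 rose, the adenine nucleotide translocase Slc25a5 (log2 0.36, adjusted p = 0.00716), and Slc25a4, the main translocase of heart, was higher with THZ1 in TAC (0.56, adjusted p = 0.00571). Ucp1, the uncoupling protein of brown fat, was at 0 in 14 of the 16 libraries and reached 1.27 normalized counts at most. Among relatives of Angptl4, Angptl7 rose with TAC (log2 4.08, adjusted p = 3.79e-06) and fell with THZ1 in TAC (-2.94, adjusted p = 2.79e-04).

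The genes whose levels followed each member most closely were ranked by Pearson correlation of log2 values over the 16 libraries, among 10317 genes. These are descriptions, since the libraries share group differences and scaling, and the correlation of deviations from the group means is given for some of them as the value within groups. Pdk2 followed Pygm, the glycogen phosphorylase of muscle, at r = 0.998 (0.994 within groups), then Kcnip2 (0.993) and Aldh4a1 (0.992). Pdk4 and Angptl4 had each other as the nearest gene, at 0.872 (0.732 within groups), followed for Pdk4 by Ptp4a1 (0.872) and Tacc2 (0.848) and for Angptl4 by Cldn5 and Klf11 (both 0.843). Ucp3 followed Clpx (0.969), a mitochondrial protease subunit, the fatty acid transporter Cd36 (0.968; 0.912 within groups) and Rc3h1 (0.966).

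Ucp2 followed Klhl26 (0.934), Rbp7 (0.929) and Gpihbp1 (0.909), the last of them an endothelial protein. Ucp2 was at 3071 in TAC-Veh replicate 1 and at 1329 at most elsewhere. That library therefore weighs heavily in these correlations, which were not computed without it. Pdk3 followed Lgals3 (0.905), which macrophages express strongly, then Asah1 (0.895) and after it Tmbim1, and Pdk1 followed Mtap7 (0.932), Klf9 (0.899) and Gpr116 (0.896). Among the members themselves, Pdk2 and Pdk4 correlated at 0.0589 (0.00661 within groups), Pdk2 and Pdk3 at -0.791 (-0.436 within groups), and the neighbours Ucp2 and Ucp3 at 0.254 (0.551 within groups).

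**Figure D5:**
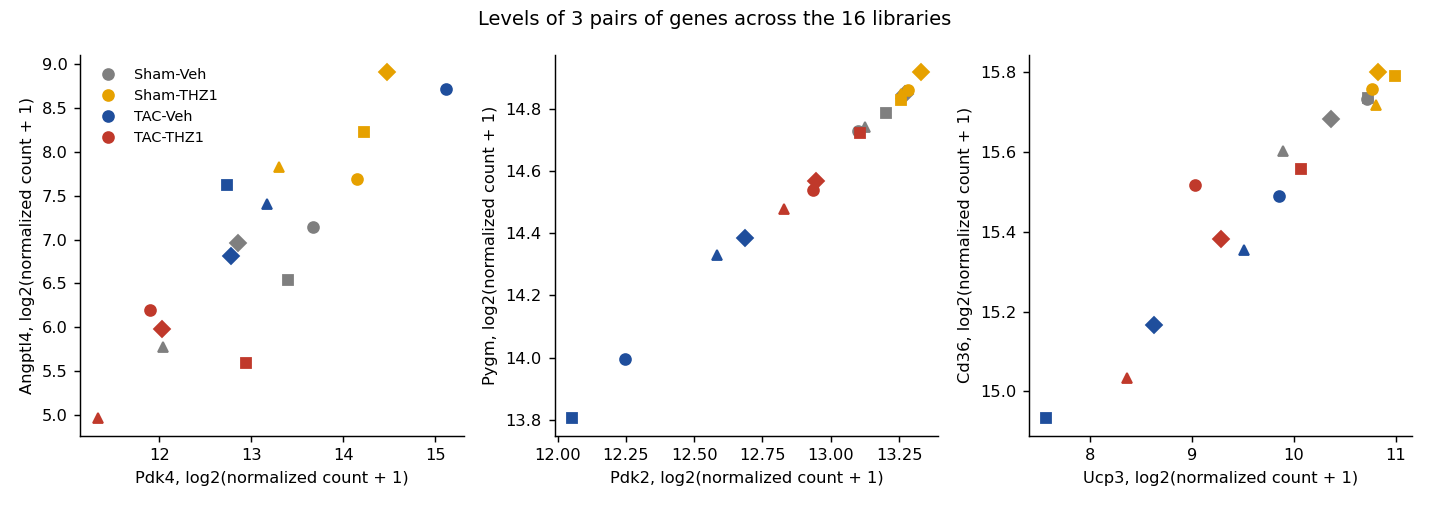
Levels, log2(normalized count + 1), of Pdk4 and Angptl4, Pdk2 and Pygm, and Ucp3 and Cd36 in the 16 libraries, with colour for the group and marker shape for the replicate number. Pdk2 and Pygm lie along a line (r = 0.998), while Pdk4 and Angptl4 scatter more widely (r = 0.872).

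Marker genes of the cells in a ventricle piece moved with the groups. Of 7 cardiomyocyte markers 4 fell with TAC, in which their summed level ranged from 707280 to 1037400 normalized counts in TAC-Veh and from 1.34e+06 to 1.44e+06 in Sham-Veh, and 5 rose with THZ1 in TAC (1.17e+06 to 1.45e+06). Of 6 fibroblast markers 4 rose with TAC and 4 fell with THZ1 in TAC, with sums of 21230 to 23470 in Sham-Veh, 41050 to 59920 in TAC-Veh and 24490 to 35880 in TAC-THZ1. Of 7 macrophage markers 4 rose with TAC and 0 were called with THZ1 in TAC, with sums of 5136 to 6292 in Sham-Veh, 7797 to 10071 in TAC-Veh and 5454 to 10590 in TAC-THZ1. Pdk2 and Ucp3, which fell with TAC, thus moved with the cardiomyocyte markers in that comparison, and Pdk3, which rose, with the fibroblast and macrophage markers. With THZ1 in TAC Pdk2 rose, while Ucp3 (log2 0.30) and Pdk3 (log2 -0.58) were not called. The part of these cell types in the changes was not tested.

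Markers of white fat and skeletal muscle were low in every library. Of 6 white adipocyte markers, a tissue rich in Angptl4, 1 passed the filter, and the list summed to 2.15 to 42.5 normalized counts, with Lep at 0 in 12 libraries and Adipoq at 5.94 at most. Skeletal muscle, rich in Ucp3, was likewise near 0, with a marker sum of 26.7 to 62.2 and Myh4 at 0 in 8 libraries. Of the brown fat markers Elovl3 was at 0 in 14 libraries, and Cidea and Ppargc1a were present at 442 and 1053 or more, both of which heart muscle expresses. Neutrophil markers, a possible source of Ucp2, summed to 138 to 6818 in TAC-THZ1 and 45.1 to 226 in TAC-Veh, and 2 of 3 tested were called higher there, while Ucp2 was at 775 to 1114 and 963 to 3071. Endothelial markers summed to 14370 to 15540 in TAC-THZ1 and 15090 to 19820 in TAC-Veh, with 1 of 5 higher and 2 lower.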

How the data were processed

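Ventricle RNA of 16 mice (4 groups of 4) was made into stranded libraries. Single-end reads were aligned by the authors to mm9 (TopHat2 2.1.1), counted over GENCODE genes by strand (HTSeq) and divided by a DESeq2 size factor per library, so the deposited signal is a normalized count per gene. It held 22372 genes. Values were whole multiples of a step per library, and 100% of values above 0 gave whole reads (tolerance 0.001). Reads recovered per library were 21431703 to 35812869, with size factors of 0.749 to 1.40.

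The main test was limma 3.58.1 (R 4.3.3) on log2(normalized count + 1), with eBayes and a variance trend, 1 mean per group over all libraries, and the 13331 genes that reached a normalized count of 10 in 4 or more libraries. P-values were adjusted by Benjamini and Hochberg over all genes tested within each of 5 contrasts, all of them two-sided. Fold changes are on the log2(value + 1) scale and understate low genes. Transcript shares were scaled by the union of exons and compared by exact two-sided permutation tests. Alternatives covered pseudocount, filter, scaling, model, thresholds, each library left out, a replicate block, and edgeR 4.0.16 and DESeq2 1.42.0 on the recovered reads. The length of the longest coding transcript was added as an alternative after seeing the data.

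All 7 genes are named, with the 3 genes most correlated with each (mean of at least 100 normalized counts) and, of each list, at most 4 genes with the smallest adjusted p and those acting on the same substrate or complex; genes named outside the rule are marked as chosen after their values were seen. Members, lists and tests were chosen with earlier results of these data known. The authors' replicates were separate mice, and the labels gave no sequencing batch. Counts were simulated from these libraries with 200 of 13331 genes changed for TAC-Veh against Sham-Veh. There limma called 89.7% of 2-fold and 95.1% of 4-fold changes. Of the calls 4.64% were false with limma, 4.98% with edgeR and 10.0% with DESeq2. The simulation gave each gene the same spread in all groups, so these rates need not hold for genes that varied more in TAC-Veh. Pdk4 varied by 95.5% in TAC-Veh and 43.6% in Sham-Veh (coefficient of variation). Gene positions are those of GENCODE on mm9. Python 3.11.15 with SciPy was used for shares, motifs and figures.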

Additional observations from a re-analysis of the deposited data

Results flagged for a closer look

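In 2 of the 28 groups of 4 values examined, the highest sample stood further from the others than Dixon's 95% limit for the gap to the next value over the range, which chance exceeds in about 1 in 20 groups. Pdk4 in TAC-Veh had replicate 1 at 35683 normalized counts, with a gap of 0.916 of the range. Ucp2 in TAC-Veh had the same replicate at 3071, with a gap of 0.936. This library was also the highest of its group for Angptl4, Pdk3 and Ucp3.

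For 2 genes the effect of THZ1 in TAC differed from that in sham by the interaction test of limma. The difference was log2 -2.45 for Pdk4 (adjusted p = 0.0325; 1.05 in sham and -1.40 in TAC) and log2 -3.52 for Angptl4 (adjusted p = 0.00225; 1.56 in sham and -1.96 in TAC). The Pdk4 interaction was called in 8 of 16 fits with 1 library left out, and that of Angptl4 in all 16. Neither gene was called for THZ1 in sham on its own, and every Angptl4 value moved to the stated side of the vehicle group in both surgeries.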

How the results depend on the processing

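Over 784 changes of 1 gene under 1 alternative, 719 kept the direction and the side of the threshold, 32 lost a call, 15 gained one and 18 changed sign, all of these uncalled. The cause was not tested.

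Counts of called genes moved by more than 1.5 times as follows. For TAC, 4 became 2 with the study's fold threshold, taken in either direction. For THZ1 in sham, 0 became 1 both with the groups compared alone and with array weights, Angptl4 each time. For the interaction, 2 became 1 with robust eBayes and with an adjusted p under 0.01. With 1 library left out, the counts ranged from 3 to 4 for TAC, 2 to 5 for THZ1 in TAC, 0 to 0 for THZ1 in sham, 1 to 3 for the interaction and 3 to 4 for TAC among THZ1-treated mice.

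Signs changed as follows. For Pdk1 without mitochondrial genes in the total, the value for THZ1 in TAC was -0.032 and for the interaction -0.036, and with quantile scaling that for THZ1 in sham was -0.0064. For Ucp3 with array weights the interaction was 0.060. Leaving out 1 library gave -0.015 to 0.070 (Pdk1, THZ1 in TAC), -0.012 to 0.038 (Pdk1, THZ1 in sham), -0.035 to 0.050 (Pdk1, interaction), -0.094 to 0.70 (Pdk4, TAC), -0.14 to 0.62 (Ucp3, THZ1 in TAC) and -0.56 to 0.20 (Ucp3, interaction).

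Replicate numbers were shared between groups, but same-numbered libraries did not deviate together (24 pairs, r from -0.43 to 0.16, median 0.0215). Libraries of other numbers had r from -0.23 to 0.31 (72 pairs, median 0.000547). This shows no large shared deviation and cannot tell whether the mice were paired. With the replicate number as a block, 4, 3, 0, 2 and 4 genes were called for TAC, THZ1 in TAC, THZ1 in sham, the interaction and TAC among THZ1-treated mice. With 4 mice a group, single libraries decided the calls of Angptl4 for TAC and of Pdk4 for THZ1 in TAC and for the interaction. The same held for Pdk2 for TAC among THZ1-treated mice, called in 1 of 8 fits with 1 library left out. For Pdk3, 29 reads were the least behind a value.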

Other observations

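Other genes of related programmes gave a mixed picture. Of 13 hypoxia genes 5 rose and 3 fell with TAC (median log2 0.37), where 21.4% of all genes were called higher and 23.6% lower. The collagen prolyl hydroxylase P4ha1 rose by log2 1.01 (adjusted p = 2.28e-05), and Hk2, the hexokinase of muscle, fell by 0.52 and Egln1, an oxygen sensor, by 0.53. With THZ1 in TAC 3 of the 13 fell, among them P4ha1 (-0.67) and P4ha2 (-0.37), and Egln1 rose (0.46). Over all genes 15.1% were called higher and 14.2% lower in that comparison. Pdk1, often counted as a hypoxia target, stayed within 4223 to 5191 normalized counts in all libraries. Of 11 fasting and glucocorticoid genes Cdkn1a rose with TAC (log2 1.48, adjusted p = 0.00999) and Klf15 fell (-0.70, adjusted p = 0.0201), and the median over the list was -0.09. A count of 1 rise and 1 fall among 11 genes is below the shares of all genes. With THZ1 in TAC the list median was log2 -0.26, and in sham 0.18.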
